A study of Mus musculus with 15 samples.

Results

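The second response of wild-type (WT) mouse embryonic fibroblasts to interferon beta was compared with their first. It rests on 4 of the 15 libraries of the series, chosen by their titles: 2 of WT pretreated cells and 2 of WT naive cells, all taken 2 h after interferon was added. The cells carried the c57bl/6 strain label and grew in DMEM with donor bovine serum. Naive cells received 100 units per ml of recombinant mouse interferon beta for 2 h and nothing before. Pretreated cells had already had 3 h of interferon, were washed, spent 24 h without it, and then received the same 2 h treatment. The question was how far the level of each transcript at 2 h depended on the earlier exposure. The 4 WT libraries of the 0 h time point, 2 naive and 2 pretreated, show the level from which each 2 h treatment began. Cells labelled NSD2 KO, given the same treatments, supply a final comparison with 1 naive and 2 pretreated libraries at 2 h. NSD2 is a histone H3 lysine 36 methyltransferase, and the tables call its gene Whsc1. The labels describe no mock pretreatment, so the first interferon, the wash and the longer handling cannot be told apart. They name no separate embryos or cultures either, so the replicates may be technical and p-values speak for the spread of these libraries alone.

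Interferon beta binds a receptor whose kinases activate transcription factors of the STAT family. Together with IRF9, STAT proteins form ISGF3, a complex that binds the interferon-stimulated response element (ISRE) in the promoters of antiviral genes. A stronger or faster response of such genes to a repeated stimulus, after the first response has faded, is known as transcriptional memory.

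The 4 libraries held 33075180 and 21089609 counts in genes (naive) and 27366605 and 26515315 (pretreated). The ribosomal RNA gene Rn45s and the gene Lars2 together made up 27.0%, 25.2%, 18.5% and 29.4% of them in that order, so the first pretreated library stood apart. Fibroblast markers summed to 13827 to 14417 CPM (counts scaled to library size) in naive and 11617 to 12414 CPM in pretreated libraries, with 10 of 12 at 1 CPM or more and Fap at 0. Macrophage and blood markers summed to 18.4 to 19.0 CPM in naive and 19.9 to 20.5 CPM in pretreated libraries, with 8 of 16 at 0, among them Aif1, Tyrobp and Cd3e. Whsc1 stood at 113 and 115 CPM in the naive and 145 and 141 CPM in the pretreated libraries and was called higher, with a log2 change of 0.33 ± 0.047 (adjusted p = 2.7e-06). In the KO libraries it held 95.6 to 110.5 CPM, which cannot show whether a stretch of the gene was removed, since reads were summed over all of it.

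Genes of 6 interferon-related lists made up 79 of the 150 large rises of the second response and 0 of the 107 large falls. EdgeR's quasi-likelihood test called 3447 of 13802 genes at a Benjamini-Hochberg adjusted p below 0.05, which is 25% of those tested. Of these, 1823 were higher in pretreated cells (13.2%) and 1624 lower (11.8%). At least 2-fold changes were less frequent, with 150 genes higher (1.09%) and 107 lower (0.775%). Lists of antiviral, GTPase, signalling, sensor, MHC class I and chemokine genes together held 193 of the 13802 tested genes. These lists were chosen with earlier results of these data known. They contained 52.7% of the genes that rose at least 2-fold. Large falls outside them included the chemokine gene Ppbp and the invariant chain gene Cd74. The median log2 change over all genes tested was -0.0032. Without the first pretreated library 147 genes rose and 64 fell at least 2-fold, so the count of large falls rested in part on that library.

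**Figure D1:**
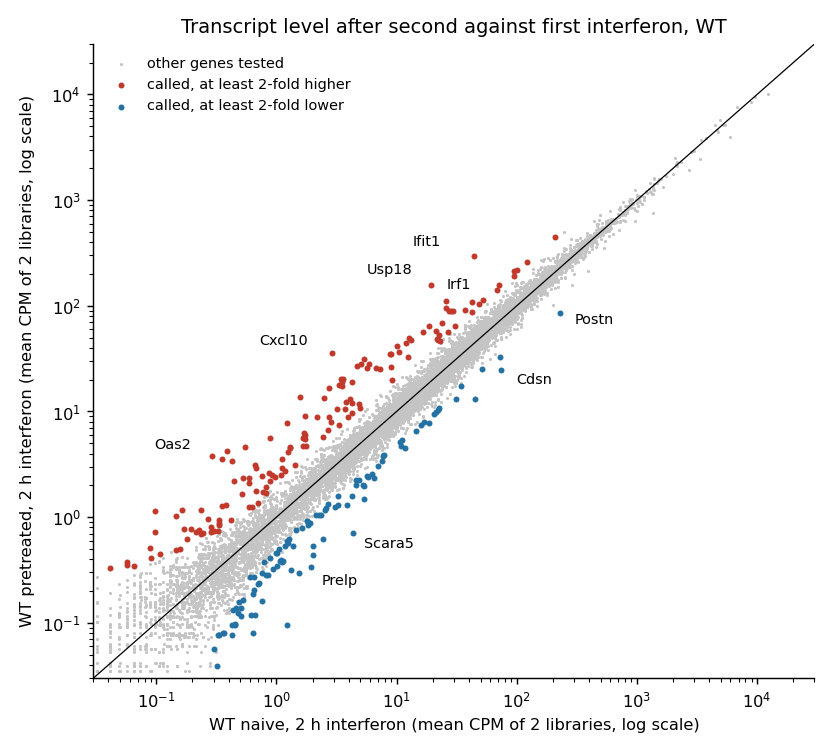
Mean CPM in the 2 WT pretreated libraries (vertical) against the 2 WT naive libraries (horizontal), both at 2 h of interferon and on log scales, for genes tested with at least 0.03 CPM on both axes. Red points are the called genes at least 2-fold higher and blue points those at least 2-fold lower, and the line marks equal levels. Ifit1, Usp18 and Cxcl10 lie far above the line, and Scara5, Prelp and Cdsn below it, while 385 genes under the limit, 9 of them called at least 2-fold, are not drawn.

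Among called genes with a mean of at least 1 CPM and no overlap between the groups, the largest rise was that of Cxcl10, a chemokine gene that attracts activated T cells. It stood at 3.07 and 2.68 CPM in the naive and 34.3 and 37.8 CPM in the pretreated libraries. The groups did not overlap, and the level was 12.3-fold higher, a log2 change of 3.62 ± 0.11 (edgeR adjusted p = 3.0e-20). Usp18 encodes a protease that strips the ubiquitin-like ISG15 from proteins and holds back the interferon receptor. It stood at 20.9 and 18.1 CPM in the naive and 152 and 166 CPM in the pretreated libraries, again with no overlap, and was 8.06-fold higher (log2 change 3.01 ± 0.070, edgeR adjusted p = 2.9e-23). Ifit1 encodes a protein that recognises viral RNA lacking a mature cap and stood at 46.2 and 41.9 CPM in the naive and 252 and 335 CPM in the pretreated libraries. Both pretreated libraries lay far above both naive ones, by 6.62-fold (log2 change 2.73 ± 0.091, edgeR adjusted p = 1.6e-19). Rsad2, the gene of the antiviral enzyme viperin, stood at 1.52 and 1.64 CPM in the naive and 11.9 and 15.3 CPM in the pretreated libraries and was 8.59-fold higher (edgeR adjusted p = 2.7e-16).

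The oligoadenylate synthetases, which make a messenger that activates the RNA-cutting enzyme RNase L, supplied 4 of the 12 largest rises. Oas2 stood at 0.388 and 0.198 CPM in the naive and 3.70 and 3.83 CPM in the pretreated libraries. Oas1a stood at 0.550 and 0.546 CPM in the naive and 5.004 and 4.21 CPM in the pretreated libraries, and Oas1b at 0.970 and 0.794 CPM in the naive and 5.43 and 5.69 CPM in the pretreated libraries. Oas3 had the widest naive spread of the 4, with 0.711 and 0.149 CPM in the naive and 3.74 and 3.08 CPM in the pretreated libraries. No overlap between the groups was required of all 4 by the rule that picked them. Their log2 changes were 3.57 ± 0.28, 3.07 ± 0.24, 2.62 ± 0.23 and 2.80 ± 0.33 in that order. Without the first naive library the Oas3 change was 4.49, against 2.80 with it, and that of Oas2 4.22, against 3.57. The copies resemble each other, and how shared reads were counted is not given in the sources used here. Mx1, an antiviral GTPase gene, stood at 1.36 and 1.09 CPM in the naive and 5.57 and 10.1 CPM in the pretreated libraries, the widest pretreated spread of the 12. Its log2 change was 2.61 ± 0.24 (edgeR adjusted p = 8.6e-10). The remaining rises were those of Gm14446, whose starts lie between those of Ifit3 and Ifit1 on chromosome 19, Ddx60, a helicase gene of the RNA-sensing pathway, and Ifi205, of the DNA-binding p200 family. Their log2 changes were 3.29 ± 0.28, 3.24 ± 0.34 and 2.54 ± 0.14. Without the first naive library that of Gm14446 was 4.39.

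**Figure D2:**
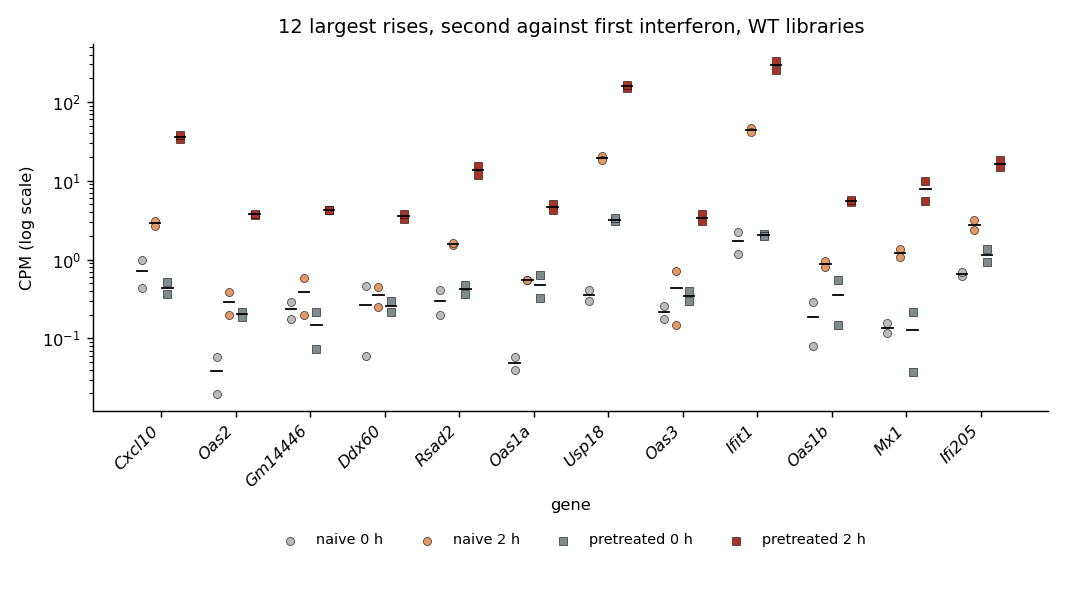
CPM in each WT library (log scale) of the 12 genes with the largest rises, with 2 libraries per group and a bar at the group mean. Red squares (pretreated, 2 h) lie above orange circles (naive, 2 h) in every gene, while at 0 h the grey squares (pretreated) stand clear of the grey circles (naive) for Usp18, Oas1a and Oas2 and near or among them for Cxcl10, Ifit1 and Mx1.

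A short ISRE core was sought in the promoters of the raised and lowered genes. The search took GAAA, any 2 bases and GAAA again on either strand, so TTTC, 2 bases and TTTC on the printed strand is the same match, in RefSeq windows of 300 bases (GRCm38.p6) from 250 bases before to 50 after each gene's start. A match was found in 1131 of 32851 windows of all genes (3.44%) and in 394 of the 10870 tested genes that had a window (3.62%). Of genes called at least 2-fold higher, 47 of 112 with a window held it (42%), and of those called higher by less than 2-fold 68 of 1348 (5.04%). The shares were 3 of 80 (3.75%) for at least 2-fold lower genes and 38 of 1213 (3.13%) for the other lower genes. Among the 12 largest rises all 8 with a window held it, and among the 12 largest falls 0 of 7. A match describes letters in the window and does not show that a factor binds there.

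The 6 stretches printed here are each 100 bases long, taken from the 250 bases before a start and read 5′ to 3′ on the gene's strand. They come from genes that hold a match and carry the contrast drawn in the next paragraphs. Oas1a and Isg15 were already raised before the second treatment, and Cxcl10, Rsad2, Ifit1 and Gbp2 were not called higher there. Capitals mark the matches. Sequences and positions are from RefSeq's GRCm38.p6 table, a later build than the mm9 named for the counts.
Oas1a, chr5:120907526-120907625 (- strand): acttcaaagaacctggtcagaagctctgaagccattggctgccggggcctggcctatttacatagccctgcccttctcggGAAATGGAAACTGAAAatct
Isg15, chr4:156200830-156200929 (- strand): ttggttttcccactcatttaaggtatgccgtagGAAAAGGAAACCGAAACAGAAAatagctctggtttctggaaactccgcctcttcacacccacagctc
Cxcl10, chr5:92349040-92349139 (- strand): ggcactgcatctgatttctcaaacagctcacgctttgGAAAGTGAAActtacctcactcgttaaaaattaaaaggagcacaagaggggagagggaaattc
Rsad2, chr12:26456518-26456617 (- strand): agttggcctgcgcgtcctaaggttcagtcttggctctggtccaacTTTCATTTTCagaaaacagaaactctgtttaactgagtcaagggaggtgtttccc
Ifit1, chr19:34640759-34640858 (+ strand): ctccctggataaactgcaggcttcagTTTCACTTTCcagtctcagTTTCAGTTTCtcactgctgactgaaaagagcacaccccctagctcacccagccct
Gbp2, chr3:142620559-142620658 (+ strand): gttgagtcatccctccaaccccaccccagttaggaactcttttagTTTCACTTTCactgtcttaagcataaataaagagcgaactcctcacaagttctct

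In Oas1a and Isg15 neighbouring matches overlap, with 2 and 3 starts in a row, and the nearest lies 4 and 56 bases from the start. Ifit1 holds 2 separate matches in the reverse orientation. Cxcl10, Rsad2 and Gbp2 hold 1 each, and that of Gbp2 lies 49 bases from the start. Both kinds of gene thus include holders of the core, and both include genes without it before the start. No match lay before the start of Irf1, Tap1 and Tlr3, named below as near their naive level at 0 h. The same was true of Irf7, which was already raised. Of the 24 followed genes, 13 of the 20 with a window held a match. These few windows were not compared by a test.

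The antiviral effectors rose as a group. Of 70 tested members 61 were higher and 0 lower, 48 of them at least 2-fold, against the 13.2% and 1.09% of all genes given above. Their median log2 change was 1.66, or 1.68 with the member that had no count on one side set at its bound. Trim21, an antibody receptor that directs bound virus to the proteasome, stood at 26.8 and 24.6 CPM in the naive and 91.8 and 97.9 CPM in the pretreated libraries (log2 change 1.88 ± 0.059). Dtx3l, a ubiquitin ligase gene, changed by 1.69 ± 0.059, Ifit3 by 2.08 ± 0.10, Ifit2 by 1.596 ± 0.070, Isg15 by 1.77 ± 0.098 and Bst2, the gene of tetherin, by 2.17 ± 0.11. The 9 members that were not called included Ifitm1 (-0.02), Ifitm2 (-0.11) and Trim25 (-0.15). In bulk RNA, more responding cells and more RNA per responding cell cannot be told apart.

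The interferon-inducible GTPases, which act on the vacuoles of intracellular pathogens, had 13 of 18 tested members higher and 0 lower. Their median was 1.75, or 1.64 with the 2 members that had no count on one side set at their bound. Igtp stood at 13.4 and 12.01 CPM in the naive and 47.6 and 51.3 CPM in the pretreated libraries and Gbp3 at 3.43 and 3.18 CPM in the naive and 17.4 and 17.9 CPM in the pretreated libraries. The pretreated libraries were higher in both genes without overlap, and log2 changes were 1.95 ± 0.078 and 2.41 ± 0.11. Irgm2 changed by 1.77 ± 0.077, Gbp2 by 2.03 ± 0.091 and Irgm1 by 1.13 ± 0.052. Gbp4 stood at 0.0647 and 0 CPM in the naive and 0.176 and 0.253 CPM in the pretreated libraries and was not called, with a fitted change of 2.32 ± 0.96 (adjusted p = 0.079). Gbp and Irg genes have close copies, so their shared reads are uncertain.

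Of 26 tested members of a list of nucleic acid sensors and cell death genes 15 were higher and 1 lower, with a median of 0.68. Ifih1, the gene of the long RNA sensor MDA5, stood at 3.95 and 3.03 CPM in the naive and 17.7 and 20.1 CPM in the pretreated libraries (log2 change 2.39 ± 0.11), and Tlr3, the endosomal RNA sensor gene, at 13.8 and 12.7 CPM in the naive and 45.9 and 48.6 CPM in the pretreated libraries (log2 change 1.82 ± 0.071). Both rose without overlap between the groups. Ddx58, which encodes RIG-I, rose by 1.03 ± 0.056 and Ifi203 of the p200 family by 2.499 ± 0.10. Ticam1, the adaptor gene of TLR3, was the exception with -0.59 ± 0.094 (adjusted p = 1.8e-05). Of 23 tested MHC class I presentation genes, 12 were higher and 0 lower, with a median of 0.34. Tap1, a subunit gene of the peptide transporter, stood at 21.5 and 21.5 CPM in the naive and 47.3 and 49.0 CPM in the pretreated libraries, and B2m, the light chain gene, at 256 and 241 CPM in the naive and 364 and 347 CPM in the pretreated libraries. Their log2 changes were 1.16 ± 0.063 and 0.51 ± 0.047. Nlrc5, a transactivator gene of this pathway, rose by 1.68 ± 0.18.

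The signalling genes split. Of 29 tested, 9 were higher and 5 lower, beside 13.2% and 11.8% of all genes, with a median of 0.05. Those higher included transcription factors of the pathway. Stat2 stood at 54.6 and 49.7 CPM in the naive and 119.5 and 106 CPM in the pretreated libraries, and Irf7, which drives type I interferon genes, at 8.92 and 8.73 CPM in the naive and 35.6 and 34.8 CPM in the pretreated libraries. Neither gene overlapped between the groups, and log2 changes were 1.11 ± 0.059 and 1.99 ± 0.078, beside 1.11 ± 0.053 for Irf1 and 0.62 ± 0.065 for Irf9. Socs1, a feedback inhibitor gene of the receptor kinases, rose by 0.94 ± 0.099. The lower members were the receptor genes Ifnar1 (-0.27 ± 0.052) and Ifngr2 (-0.32 ± 0.072), Stat3 (-0.49 ± 0.060), Stat5a (-0.35 ± 0.12) and Cish (-0.60 ± 0.18). Of 27 chemokine and NF-kB target genes 6 were higher and 3 lower, the latter near the share of all genes. Il15, a cytokine gene for natural killer and memory T cells, stood at 1.39 and 1.19 CPM in the naive and 4.19 and 5.06 CPM in the pretreated libraries (log2 change 1.81 ± 0.21). The chemokine gene Cx3cl1 went the other way, with 40.0 and 34.98 CPM in the naive and 26.5 and 25.7 CPM in the pretreated libraries and a log2 change of -0.53 ± 0.065. Ptgs2, the inducible cyclooxygenase gene, gave -0.03 ± 0.044 (adjusted p = 0.69).

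**Figure D3:**
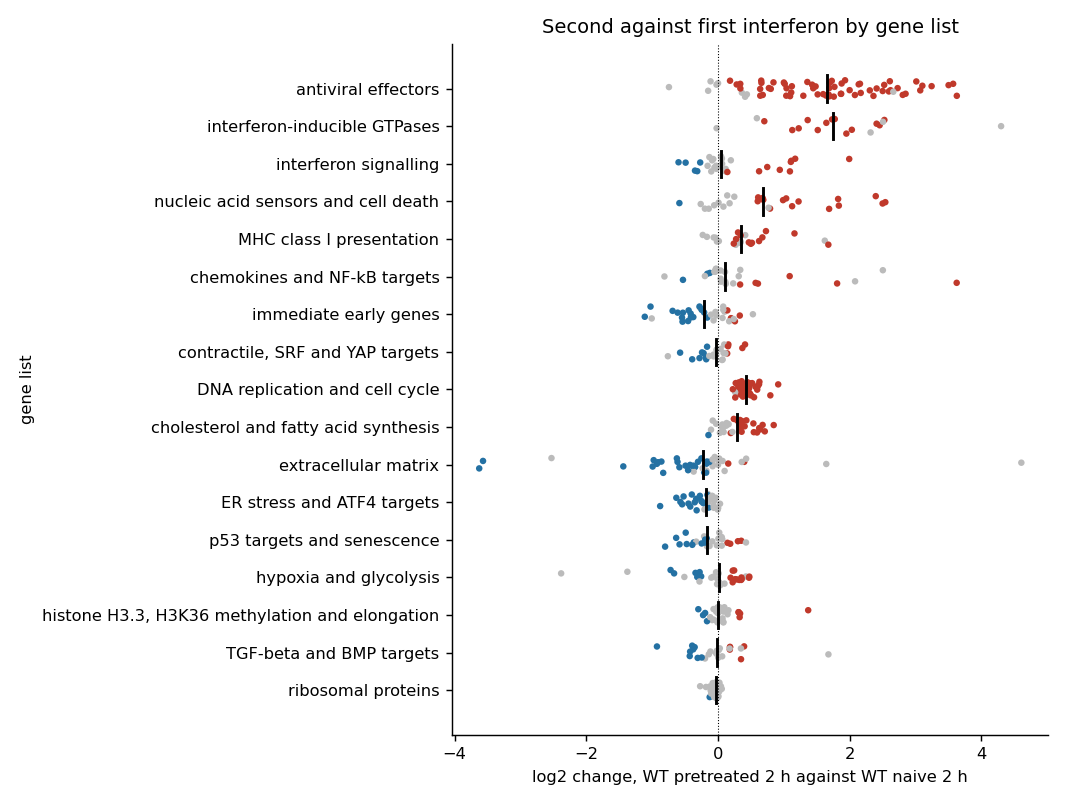
Log2 change of WT pretreated 2 h against WT naive 2 h for each tested member of 17 gene lists (1 point per gene, black bar at the list median, vertical jitter without meaning). Red and blue points were called higher and lower, and grey points were not called. The antiviral and GTPase medians stand at 1.66 and 1.75, while cell cycle genes gather in a narrow band around 0.42.

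To set the level at 2 h beside the level at the start, pretreated and naive WT cells were also compared at 0 h, in other libraries. There edgeR called 3307 genes (24%), 1733 higher (12.6%) and 1574 lower (11.4%). Of the 1823 genes higher at 2 h, 1115 were also higher at 0 h, which is 61.2% of the former and 64.3% of the 0 h list. Of the 1624 lower at 2 h, 914 were also lower at 0 h (56.3% and 58.1%). Among the 150 genes at least 2-fold higher at 2 h, 59 were called higher at 0 h, 2 lower, and 89 (59.3%) were not called there. Among the 107 at least 2-fold lower genes, 55 were called lower at 0 h, 0 higher, and 52 were not called.

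The difference between the 2 h and the 0 h comparison was then tested itself. This is also the difference between the second and the first induction. EdgeR called 420 genes (3.04%), 225 with a larger change at 2 h (1.63%) and 195 with a smaller or more negative one (1.41%). Antiviral effectors had 33 of 70 members with a larger change and 0 with a smaller one, and the median difference was 0.72. For the GTPases the counts were 8 and 0 of 18 with a median of 1.47, for sensors 11 and 0 of 26, for MHC class I genes 8 and 0 of 23, and for signalling genes 5 and 1 of 29. All 24 genes followed throughout, a set of well-known interferon targets, were called higher at 2 h, beside 13.2% of all genes tested. Of these, 15 were also called higher at 0 h. In 13 the 2 h change was called larger than the 0 h change, in 1 smaller and in 10 neither.

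Some genes were back near their naive level at 0 h and still reached a higher level on the second treatment. Cxcl10 stood at 0.434 and 0.984 CPM in naive and 0.364 and 0.518 CPM in pretreated cells at 0 h, where the groups overlapped. Its change at 2 h was larger by 4.01 ± 0.43 on the log2 scale (edgeR adjusted p = 2.0e-07). Ifit1 stood at 1.16 and 2.26 CPM and 2.11 and 1.996 CPM at 0 h, and its difference was 2.23 ± 0.35 (edgeR adjusted p = 9.2e-05). The first induction raised Ifit1 by 4.93 and the second by 7.15 log2 units. Gbp2 stood at 4.48 and 4.86 CPM in naive and 2.91 and 3.92 CPM in pretreated cells at 0 h, and gave a difference of 2.46 ± 0.18 (adjusted p = 1.4e-10). Rsad2 was not called higher at 0 h, which does not show a return to its naive level. The difference was 2.36 ± 0.54 for Rsad2 (edgeR adjusted p = 0.0088) and 3.77 ± 0.80 for Gm14446 (edgeR adjusted p = 0.0041). Irf1, a transcription factor gene, was at 29.0 and 27.4 CPM and 26.0 and 26.9 CPM at 0 h, with a difference of 1.21 ± 0.083 (adjusted p = 2.8e-11). Tap1, Tlr3 and Trim21 gave 1.35 ± 0.10, 2.09 ± 0.12 and 1.66 ± 0.14. Daxx, a chaperone gene for histone H3.3, belongs here as well. It stood at 42.0 and 42.6 CPM in the naive and 112 and 107 CPM in the pretreated libraries at 2 h, and at 27.9 and 27.0 CPM and 27.4 and 26.4 CPM at 0 h, with a difference of 1.40 ± 0.078 (adjusted p = 5.2e-13).

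Other genes entered the second treatment at a raised level, and the fitted change at 2 h was near that at 0 h. Usp18 stood at 0.296 and 0.405 CPM in naive and 3.06 and 3.36 CPM in pretreated cells at 0 h, a log2 change of 3.29 ± 0.28, against 3.01 at 2 h. The difference was -0.28 ± 0.34 (adjusted p = 0.84). Bst2 stood at 2.46 and 1.91 CPM and 10.2 and 11.1 CPM at 0 h (log2 change 2.20 ± 0.14), against 2.17 at 2 h, with a difference of -0.04 ± 0.19 (adjusted p = 0.98). For Mx2 the changes were 2.49 at 0 h and 2.30 at 2 h, for Oas1a 3.32 and 3.07, for Isg15 1.65 and 1.77, and for Irf7 1.62 and 1.99. None of these 4 differences was called (adjusted p = 0.95, 0.95, 0.97 and 0.73 for Mx2, Oas1a, Isg15 and Irf7). The fitted differences were -0.18 ± 0.50, -0.25 ± 0.64, 0.11 ± 0.46 and 0.38 ± 0.29, wide enough that equal inductions are not shown. Irf9 was the followed gene whose lead narrowed. It stood at 5.03 and 5.73 CPM and 13.4 and 15.7 CPM at 0 h and at 41.8 and 39.9 CPM in the naive and 60.4 and 65.8 CPM in the pretreated libraries at 2 h, so that the log2 change went from 1.47 to 0.62, a difference of -0.85 ± 0.12 (adjusted p = 3.1e-05).

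**Figure D4:**
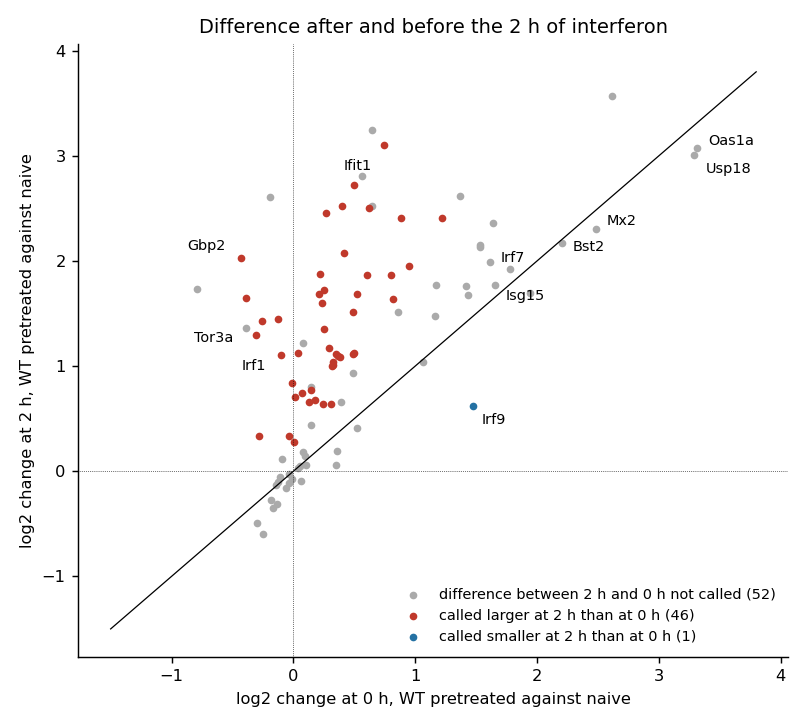
Log2 change of WT pretreated against naive cells at 2 h (vertical) and at 0 h (horizontal) for 99 antiviral, GTPase and signalling genes with a mean of at least 1 CPM at 2 h, with a line where both are equal. The difference was called larger at 2 h in 46 genes (red) and smaller in 1, Irf9 (blue), and was not called in 52 (grey). Gbp2, Irf1 and Tor3a lie left of 0 at 0 h, while Usp18, Oas1a, Mx2 and Bst2 lie near the line.

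The immediate early genes respond within minutes to growth factors and stress. Of 35 tested, 17 were lower and 4 higher at 2 h, beside 11.8% and 13.2% of all genes, with a median of -0.21. At 0 h the counts went the other way, with 13 higher and 2 lower. In the difference of the comparisons 14 were lower, 0 higher and 21 not called (median -0.38). Dusp4, a phosphatase gene that ends MAP kinase signals, stood at 50.8 and 47.0 CPM in the naive and 37.3 and 34.1 CPM in the pretreated libraries, without overlap, and at 6.66 and 7.47 CPM and 13.4 and 12.2 CPM at 0 h. Its change was -0.46 at 2 h and 0.89 at 0 h, a difference of -1.35 ± 0.12 (adjusted p = 2.5e-09). Maff, a small Maf transcription factor gene, stood at 29.1 and 30.7 CPM in the naive and 20.2 and 21.02 CPM in the pretreated libraries and gave a difference of -1.24 ± 0.16 (adjusted p = 4.9e-06). For other members the level at 2 h is given. Atf3, a stress-induced repressor gene, stood at 18.9 and 15.03 CPM in the naive and 8.35 and 7.46 CPM in the pretreated libraries (log2 change -1.11 ± 0.11), and Btg2, an antiproliferative gene, at 53.1 and 49.7 CPM in the naive and 26.1 and 24.4 CPM in the pretreated libraries (log2 change -1.03 ± 0.076). Both were called lower at 0 h as well, with -0.71 ± 0.12 and -0.68 ± 0.076. At 2 h Jund changed by -0.61 ± 0.067 and Fosl2 by -0.41 ± 0.050. The higher members were Junb, Jun, Myc and Zfp36, with 0.14, 0.20, 0.26 and 0.33; without the first pretreated library 1 member was called higher and 13 lower.

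Of called genes with a mean of at least 1 CPM, the semaphorin gene Sema7a had the most negative difference. It rose from 0.907 and 0.694 CPM to 45.1 and 41.6 CPM in naive and from 2.80 and 2.14 CPM to 40.6 and 34.0 CPM in pretreated cells. At 2 h its pretreated libraries were both below the naive ones (-0.22 ± 0.076, adjusted p = 0.035), while at 0 h they were above (1.54 ± 0.23, adjusted p = 9.1e-06), and the difference was -1.75 ± 0.24 (adjusted p = 1.4e-05). Slc30a1, a zinc exporter gene, rose from 5.90 and 6.83 CPM to 16.3 and 16.8 CPM in naive cells and stood at 8.37 and 8.46 CPM before and 8.77 and 9.31 CPM after the second treatment, with a difference of -1.31 ± 0.15 (adjusted p = 3.5e-07). C330024D21Rik gave -1.52 ± 0.40 (adjusted p = 0.027).

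Proliferation genes were moderately higher in pretreated cells, and this was already so before the second treatment. Of 43 tested DNA replication and cell cycle genes 42 were higher and 0 lower at 2 h, with a median log2 change of 0.42, and 41 were higher and 0 lower at 0 h (median 0.36). E2f1 was the member not called at 2 h (0.26 ± 0.098, adjusted p = 0.051). Cdc6, which loads the replicative helicase, stood at 18.5 and 19.6 CPM in the naive and 35.6 and 35.8 CPM in the pretreated libraries (log2 change 0.91 ± 0.071). Mcm3, a helicase subunit gene, stood at 112 and 112 CPM in the naive and 174 and 164 CPM in the pretreated libraries (log2 change 0.59 ± 0.043). The groups did not overlap in either gene. Mybl2 changed by 0.79 ± 0.063 and Cenpe by 0.60 ± 0.045. In the difference of the comparisons 2 members were higher and 0 lower. Cholesterol and fatty acid synthesis genes had 19 of 33 members higher and 1 lower at 2 h (median 0.29), and 26 higher and 0 lower at 0 h (median 0.41). Idi1, an enzyme gene of the isoprenoid steps, stood at 89.3 and 92.2 CPM in the naive and 169 and 157 CPM in the pretreated libraries, while at 0 h it stood at 72.6 and 74.2 CPM and 154 and 151 CPM. Its log2 change was 0.85 ± 0.047 at 2 h and 1.06 ± 0.047 at 0 h. Lss and Elovl6 changed by 0.68 ± 0.054 and 0.71 ± 0.059 at 2 h. In the difference 0 members were higher and 6 lower.

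Matrix genes made by fibroblasts were lower in pretreated cells, again at both times. Of 45 tested extracellular matrix genes 26 were lower and 2 higher at 2 h, with a median of -0.23, and 21 were lower and 4 higher at 0 h. Col1a1, a chain of type I collagen, stood at 1259.8 and 1441 CPM in the naive and 669.7 and 847 CPM in the pretreated libraries (log2 change -0.83 ± 0.076). Col3a1 stood at 199 and 199 CPM in the naive and 85.9 and 117 CPM in the pretreated libraries (log2 change -0.98 ± 0.075), and Fbln5, an elastic fibre gene, at 59.5 and 59.4 CPM in the naive and 30.6 and 32.7 CPM in the pretreated libraries (log2 change -0.91 ± 0.057). In all 3 the groups did not overlap, and at 0 h the changes were -0.58 ± 0.076, -1.02 ± 0.073 and -0.90 ± 0.055. Col5a1, Col6a1 and the crosslinking enzyme gene Lox changed by -0.62 ± 0.044, -0.86 ± 0.062 and -0.63 ± 0.047 at 2 h. In the difference 0 members were higher and 3 lower. The matrix genes share members with the fibroblast markers, of which 6 of 11 tested were lower and 1 higher, and whose summed level, given above, was lower in both pretreated libraries; its part in the result was not tested. Targets of ER stress and of ATF4, a factor of the amino acid response, had 17 of 32 members lower and 0 higher at 2 h and 23 lower and 0 higher at 0 h. Aldh1l2, a mitochondrial folate enzyme gene, stood at 383 and 394 CPM in the naive and 209.6 and 213 CPM in the pretreated libraries (log2 change -0.88 ± 0.042), and Xbp1 at 88.4 and 87.7 CPM in the naive and 57.2 and 61.5 CPM in the pretreated libraries (log2 change -0.57 ± 0.054). Of the p53 and senescence list 11 of 27 members were lower and 4 higher, beside 11.8% and 13.2% of all genes. The lower ones included Ephx1 (-0.58 ± 0.042), Gadd45a (-0.80 ± 0.11) and Trp53inp1 (-0.64 ± 0.076).

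The genes with the 12 largest falls were all called lower at 0 h as well. Scara5, a scavenger receptor gene for ferritin, stood at 4.01 and 4.61 CPM in the naive and 0.352 and 1.05 CPM in the pretreated libraries, 6.30-fold lower (log2 change -2.66 ± 0.27, edgeR adjusted p = 7.1e-09). Cdsn, the gene of the adhesion protein corneodesmosin, stood at 71.9 and 77.3 CPM in the naive and 20.4 and 29.1 CPM in the pretreated libraries, 3.03-fold lower (-1.602 ± 0.090). Serpinb1a, a neutrophil protease inhibitor gene, stood at 43.9 and 45.8 CPM in the naive and 7.999 and 18.1 CPM in the pretreated libraries (-1.81 ± 0.16). No overlap between the groups was part of the rule that picked these 12. In all 12 the first pretreated library was below the second. That library was below the second in 48.0% of all genes tested and in 70.1% of the genes that fell at least 2-fold. The share was 66.7% for those that rose at least 2-fold, among them 10 of the 12 largest rises. Over all 1823 genes called higher it was 34.6%, and over all 1624 called lower 59.2%. All 12 falls kept their call without the first pretreated library. Prelp, a small leucine-rich proteoglycan gene, changed by -2.53 ± 0.36, Car6, a secreted carbonic anhydrase gene, by -2.16 ± 0.40, and Cd74, the invariant chain gene, by -2.01 ± 0.36. Aldh1a1, a retinoic acid synthesis gene, changed by -2.002 ± 0.29, the platelet chemokine gene Ppbp by -1.91 ± 0.26, and Pdlim3 by -1.63 ± 0.25. Leaving out 1 pretreated library moved the folds of 5 of these genes by over 1.5 times. Without the first library the log2 change of Scara5 was -2.01, that of Prelp -1.90, that of Serpinb1a -1.31, that of Ppbp -1.35 and that of Pdlim3 -1.10, and without the second pretreated library they were -3.58, -3.40, -2.48, -2.66 and -2.32. Ypel2 changed by -1.504 ± 0.18 and Abi3bp by -1.45 ± 0.21. At 0 h the 11 genes named here had changes from -2.27 (Pdlim3) to -1.17 (Ypel2), each called, and in none was the difference between 2 h and 0 h called, with adjusted p from 0.55 (Pdlim3) to 0.97 (Cd74).

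**Figure D5:**
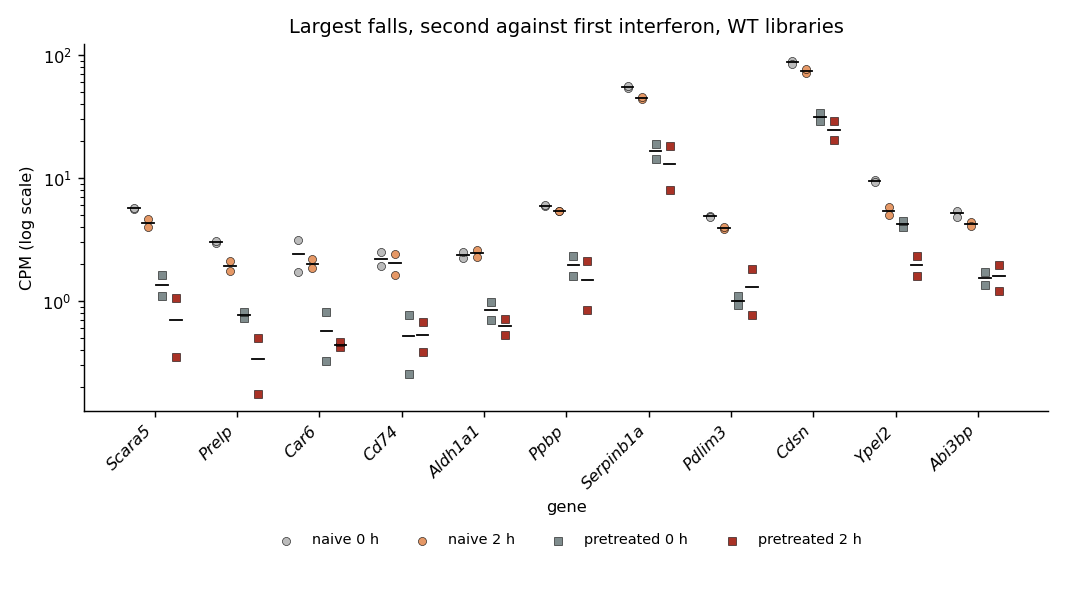
CPM in each WT library (log scale) of 11 of the 12 genes with the largest falls, with 2 libraries per group and a bar at the group mean. Both squares (pretreated at 0 h in grey and at 2 h in red) lie below the circles (naive) in every gene, and the lower red square is the first pretreated library in each.

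The log2 gain of the second over the first response was smaller in KO cells for most antiviral effector genes, when the difference between the genotypes was tested. EdgeR called 1248 genes (9.04%), 704 with a more positive change in KO (5.1%) and 544 with a more negative one (3.94%). Antiviral effectors had 0 of 70 members with a more positive change and 51 with a more negative one (median -1.19). The counts were 0 and 11 of 18 for GTPases and 0 and 12 of 26 for sensors. KO cells reached high levels already in the first response, where a single library was available. Usp18 stood at 312 CPM in the naive KO library and at 494 and 506 CPM in the pretreated ones. Its log2 gain differed from that in WT by -2.33 ± 0.095 (edgeR adjusted p = 1.6e-16). Ifit1 stood at 1153 CPM and then 1386 and 1481 CPM (difference -2.41 ± 0.13), and Cxcl10 at 197 CPM and then 549 and 556 CPM (difference -2.14 ± 0.14). All pretreated WT libraries lay below the single naive KO library in these 3 genes. A smaller log2 gain over a higher first level need not be a smaller rise in CPM. Cxcl10 rose by more CPM in KO than in WT, where it went from 3.07 and 2.68 CPM to 34.3 and 37.8 CPM. Gains in CPM were not tested. Of the 24 followed genes 23 had a smaller log2 gain in KO and 0 a larger one, and Socs1 was not called (-0.18 ± 0.14, adjusted p = 0.49). Oasl1, an inhibitor gene of Irf7 translation, gave -2.57 ± 0.63, Gm14446 -3.17 ± 0.30, Sorl1, a sorting receptor gene, -3.79 ± 0.74 and Tmtc1 -2.46 ± 0.76. Ccrl2, an atypical chemokine receptor gene with no count in either naive WT library, gave a fitted -5.60, which is no bound.

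Outside the interferon response, matrix and immediate early genes differed between the genotypes in the other direction, and cholesterol and cell cycle genes in the same direction as the antiviral genes. Extracellular matrix genes had 21 of 45 members with a more positive change in KO and 1 with a more negative one, and immediate early genes had 13 and 0 of 35. Col1a1 stood at 683 CPM in the naive and 921 and 946 CPM in the pretreated KO libraries, above the naive value, whereas it was lower in pretreated WT cells (difference 1.28 ± 0.12, adjusted p = 9.3e-09). Cholesterol and fatty acid genes had 1 and 21 of 33, with -1.02 ± 0.070 for Idi1, and cell cycle genes 0 and 14 of 43. Among single genes, Ctnnd2, an adherens junction gene, gave 2.13 ± 0.64 and Plxna4, a semaphorin receptor gene, 2.06 ± 0.66. Cacna1g, a calcium channel gene, gave 1.996 ± 0.56, Aldh1a1 1.92 ± 0.58 and Abi3bp 1.69 ± 0.39. The naive KO value of each is 1 library, assumed to vary like the other groups.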

How the data were processed

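The fibroblasts' RNA was taken up in TRIzol, built into libraries with NuGEN's Ovation SP Ultralow system and sequenced as read pairs on a HiSeq2000 (labels' protocols). For each library the authors deposited a table of raw counts per gene. The submitters' processing notes name bcl2fastq 2.15, STAR 2.5.2b, HTSeq and the build mm9. How strand was treated in counting, and with which annotation, is not given in the sources used here, so antisense, overlapping and near-identical genes are uncertain.

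A table held 24015 genes and 5 summary lines, which were set aside; reads outside any gene were 35.1% to 41.3% of those aligned uniquely. TMM scaling and the quasi-likelihood test came from edgeR 4.0.16 under R 4.3.3. The 13802 genes that filterByExpr kept (minimum count 10) entered a model of all 15 libraries in 8 groups, which left 7 residual degrees of freedom. Calls were made at an adjusted p below 0.05. CPM rest on TMM-scaled library sizes, and changes are fitted values ± SE. Replicates differed by more than sampling noise in every group, with chi-square per degree of freedom from 1.93 to 4.81.

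The comparison, the gene lists (25, with 669 genes) and the naming rule were chosen with earlier results of these data known. Named were the 12 top rises and 12 top falls by fitted change, if called, without overlap between the groups and at a mean of 1 CPM or more. Each list added up to 4 members by p, each difference test its 5 strongest changes per direction, and 24 interferon targets and Whsc1 were always kept. Some genes that the rule names are not reported here. Other list members in the text were chosen after their values were seen. Counts were also simulated with 200 changed genes, all drawn from genes above a limit on the mean count. The shares found thus do not cover genes with few counts. There edgeR found 94% of 1-unit and 100% of 2-unit log2 changes for second against first interferon (13701 genes). Of its calls 7.18% were false. The figures were 100%, 99% and 8.29% for the 0 h comparison (13663 genes). They were 93%, 98% and 7.28% for the difference between 2 h and 0 h (13715 genes), and 86%, 97% and 4.69% for KO minus WT (13708 genes). Only for KO minus WT was the share of false calls below 0.05. Results were recomputed with RLE size factors, without the filter, with DESeq2 1.42.0, on WT libraries alone, with a replicate block and with each library left out in turn. Dropping Rn45s and Lars2, or the 3 libraries in which they took under 20%, was decided after seeing the data. Figures were drawn with matplotlib 3.10.9.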

Additional observations from a re-analysis of the deposited data

Results flagged for a closer look

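In WT cells the pretreated-against-naive change at 2 h differed from that at 0 h in 420 genes, by edgeR's test of the difference itself. The named genes with the largest positive differences were Cxcl10 (4.01), Gm14446 (3.77), Gbp2 (2.46), Rsad2 (2.36) and Ifit1 (2.23), all in log2 units. The most negative ones were Sema7a (-1.75), C330024D21Rik (-1.52), Dusp4 (-1.35), Slc30a1 (-1.31) and Maff (-1.24). The change at 2 h differed between KO and WT in 1248 genes by the same kind of test, with the single naive KO library in each value. It was more positive in KO for Ctnnd2 (2.13), Plxna4 (2.06), Cacna1g (1.996), Aldh1a1 (1.92) and Abi3bp (1.69). It was more negative for Ccrl2 (-5.60), Sorl1 (-3.79), Gm14446 (-3.17), Oasl1 (-2.57) and Tmtc1 (-2.46).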

How the results depend on the processing

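For second against first interferon the 3447 calls became 3435 with RLE size factors, 3478 without the filter, 2649 with DESeq2 and 3389 in a fit of the WT libraries alone. Leaving out 1 library gave 2278 (without WT naive 2 h replicate 1) to 2954 calls. The 0 h comparison gave 2076 (without WT naive 0 h replicate 1) to 2531 and its difference from 2 h 256 (the same library) to 398, with 271 without WT naive 2 h replicate 1. The KO minus WT difference gave 778 (without WT naive 2 h replicate 1) to 1199, with 814 without KO pretreated 2 h replicate 1. Without the 3 libraries low in Rn45s and Lars2 the 0 h comparison had 2172 calls, and second against first 2355. These fits hold fewer samples, and a lone library left in a group is assumed to vary like the other groups. Calls at least 2-fold lower numbered 64 with DESeq2, 64 without WT pretreated 2 h replicate 1 and 65 without the 3 libraries, against 107. All 462 values of the 12 rises, 12 falls and 24 followed genes under these settings kept their direction and call, and 187 of 198 counts by list or fold stayed within 1.5 times. Whether the replicate numbers pair the samples is not said by the labels and was not settled here. Deviations of same-numbered libraries in the 2 groups compared correlated at 0.019, and -0.016 to 0.095 over all pairs of WT groups. A replicate block gave more calls than the main fit. They numbered 3715, 3669, 527 and 1566 for second against first, 0 h, their difference and KO minus WT. Genes under about 1 CPM, such as Oas2 in naive cells, rest on few counts.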

Other observations

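Several lists had few calls or calls in both directions in second against first interferon. Over all genes tested 13.2% were higher and 11.8% lower, and counts near these shares do not set a list apart. Glycolysis and hypoxia genes split, with 12 of 32 higher and 6 lower. Glycolytic enzyme genes were among the higher ones, such as Ldha (0.35 ± 0.043), Hk2 (0.35 ± 0.043) and Pfkl (0.47 ± 0.052), while Ndrg1 (-0.67 ± 0.056) and Vegfa (-0.26 ± 0.048) were lower. TGF-beta and BMP targets had 5 of 26 higher and 8 lower. The inhibitors of differentiation Id1 (0.40 ± 0.061) and Id2 (0.35 ± 0.090) were higher, and Tgfbi (-0.93 ± 0.090), Tgfbr2 (-0.42 ± 0.048) and Tgfb3 (-0.43 ± 0.066) lower. Contractile genes and targets of SRF and YAP had 5 of 26 higher and 8 lower. There Ankrd1 (0.41 ± 0.047) and Ctgf (-0.39 ± 0.044) moved in opposite directions. Of 29 genes on a list named for histone H3.3, H3K36 methylation and elongation 5 were higher and 4 lower. Daxx (1.37 ± 0.050) lay far from the rest. Suz12 (0.31 ± 0.050) and H3f3a (-0.30 ± 0.062) changed less, and Whsc1, given above, was called higher as well. Of 40 ribosomal protein genes 1 was called, Rpl3 (-0.13 ± 0.047, adjusted p = 0.048).

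A pair of matrix genes outside the rule for named genes, chosen after their values were seen, had larger fitted falls than any named one. Fmod, the gene of fibromodulin, stood at 1.26 and 1.19 CPM in the naive and 0.106 and 0.0843 CPM in the pretreated libraries (log2 change -3.63 ± 0.65, adjusted p = 7.9e-05), and Mfap5, a microfibril gene, at 0.356 and 0.149 CPM in the naive and 0 and 0.0421 CPM in the pretreated libraries (log2 change -3.57 ± 1.2, adjusted p = 0.035). Both rest on few counts. Postn, the gene of periostin, was lower from a high level, at 230.1 and 226 CPM in the naive and 62.4 and 107 CPM in the pretreated libraries (log2 change -1.44 ± 0.12, adjusted p = 6.0e-11).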
